A study of Mus musculus with 4 samples.

Results

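The replication-dependent histone genes are the clustered genes that encode the linker histone H1 and the core histones H2A, H2B, H3 and H4. They were described here in 4T1, a mouse mammary carcinoma cell line, after treatment with recombinant IL-17A (rIL17, 2 libraries) or with phosphate-buffered saline (PBS, 2 libraries). Members were the rows of the deposited table whose Ensembl gene identifier carries a mouse histone-cluster symbol (Hist1h to Hist4h) in the GENCODE M21 annotation. Of 70 genes annotated with such a symbol, 53 were among the 21840 rows, and these 53 are the members described below. They comprised 4 of 6 annotated H1 genes, 16 of 20 H2A genes, 14 of 19 H2B genes, 8 of 12 H3 genes and 11 of 13 H4 genes. The other 17 (Hist1h1a, Hist1h1t, Hist1h2aa, Hist1h2ba, Hist1h2br, Hist1h3b, Hist1h4b, Hist1h4m, Hist2h2aa1, Hist2h2aa2, Hist2h2ab, Hist2h2bb, Hist2h3b, Hist2h3c1, Hist2h3c2, Hist3h2ba and Hist3h2bb-ps) were not analysed here. By symbol, 48 members belonged to histone cluster 1 on chromosome 13, 3 to cluster 2 on chromosome 3, 1 to cluster 3 on chromosome 11 and 1 to cluster 4 on chromosome 6. The pseudogene Hist1h2al, counted with cluster 1 for its symbol, lies at chr13:51202727-51203065, far from the other cluster 1 members.

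Both groups were wild-type 4T1 cells, labelled epithelial, and both were kept in serum-containing medium with antibiotics. Neither the dose of IL-17A nor the time of treatment is given in the sources used here, and the labels do not say whether replicate libraries came from separate cultures. Values are normalized counts as the authors deposited them, and the libraries summed to between 17413365 and 18005398. The cytokeratin genes Krt8 and Krt18, which mark simple epithelium, were abundant in every library, at 15966 normalized counts or more. Of 7 leukocyte markers in the table, 6 were tested, 4 with higher and 2 with lower values in rIL17. The pan-leukocyte gene Ptprc had the smallest limma p of them. It stood at 3.02 and 2.01 in rIL17 libraries and at 0 in both PBS libraries. The leukocyte list summed to 158 and 154 in rIL17 libraries and 137 and 138 in PBS libraries. The 8 fibroblast and endothelial markers summed to 2978 and 2975 in rIL17 libraries and 2451 and 2562 in PBS libraries, most of it from Pdgfra. The 11 epithelial markers in the table summed to 47630 and 49622 in rIL17 libraries and 55523 and 59802 in PBS libraries. Most of this came from Krt8 and Krt18, while the median of the list was 76.8 normalized counts per kb of exon. Of these 11 markers, 9 had lower and 2 higher values in rIL17. The groups were separate in 6 of the lower markers and 0 of the higher ones. Of all genes tested, 20% were separate with lower and 25.4% with higher values in rIL17. Among the tested leukocyte markers, the groups were separate in 2 higher and 0 lower ones. Among the tested fibroblast and endothelial markers, they were separate in 2 higher and 2 lower ones. In total, 0 markers of any of the lists were called. The part of these cell markers in the histone values was not tested.

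Replication-dependent histone genes are transcribed in S phase, when new DNA has to be packed into nucleosomes. H2A and H2B form dimers, H3 and H4 form a tetramer, DNA is wound around these core histones, and H1 binds the linker DNA between nucleosomes. Most of these genes have no intron, and their mRNAs end in a conserved stem-loop instead of a poly(A) tail. The stem-loop is bound by the stem-loop binding protein (SLBP), and the transcript is cut just after it with the help of the U7 small nuclear RNA. A library step that selects RNA by its poly(A) tail therefore removes most of this mRNA, although polyadenylated transcripts of some histone genes are made too, in particular in differentiated cells. The labels name total RNA and a strand-specific kit, and no RNA selection step is stated in the sources used here.

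The stem-loop was searched for in the longest GENCODE M21 transcript of each member, as GG, any 2 bases, CTTTT, any base, AG, any 2 bases and CC, because this element sets these mRNAs apart from others. It was present in 34 of the 53 members. In all annotated genes, 89 of 55450 (0.161%) held the pattern in a transcript. The paired stem separated the classes. All 25 H1, H2A, H2B and H3 members with a match began with GGCTC, and all 9 H4 members with a match began with GGCCC or GGTCC. These examples from the most abundant members give the stem-loop in capitals with 5 bases on either side:
Hist1h1c: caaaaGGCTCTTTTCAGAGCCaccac
Hist1h2ae: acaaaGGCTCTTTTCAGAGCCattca
Hist1h2bj: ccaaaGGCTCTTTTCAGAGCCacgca
Hist1h3c: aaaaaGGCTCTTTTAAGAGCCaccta
Hist1h4i: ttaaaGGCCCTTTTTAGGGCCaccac
In 14 members the annotated transcript ended within 50 bases of the stem-loop, as in Hist1h2bj, where 23 bases follow it. In 20 members it ran on for more than 50 bases, as in Hist1h1c with 840 bases after the stem-loop, and in 10 of these the extension held the poly(A) signal AATAAA. The annotated transcript of the other 19 members held no match, among them Hist1h3h and Hist1h2bc.

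The histone genes were at very low levels in all 4 libraries. Together the 53 members had 852 and 804 normalized counts in rIL17 libraries and 832 and 906 in PBS libraries. These sums were 0.00473% and 0.00453% of the rIL17 libraries and 0.00472% and 0.0052% of the PBS libraries. The groups overlapped, and PBS replicate 2 was the highest. Member means over the 4 libraries ran from 0.497 to 103 normalized counts with a median of 9.7, and 28 of the 53 were below 10. The 3 most abundant members held 25% of the summed level.

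Per kb of exon, the members had a median level of 14.2 normalized counts (range 0.978 to 112), against 33.8 for all 20677 genes tested. The replication-independent histone variants, most of whose genes lie outside the clusters and give polyadenylated mRNA, had a median of 1199 per kb over 10 genes. H1f0, encoding the linker histone H1.0, reached 16423 per kb, H3f3b, 1 of the genes for H3.3, 6670 per kb, and H2afz, encoding H2A.Z, 4226 per kb. The genes of S phase and DNA replication had a median of 450 per kb over 40 genes, and the histone chaperones 475 per kb over 22 genes. Of 23 other RNAs listed as made without a poly(A) tail, which for Neat1 holds for the long form only, 11 were in the table. Their median was 34.7 per kb. The long nuclear RNA Malat1, whose end is a triple helix, had 8404 and 8892 normalized counts in rIL17 libraries and 9310 and 8710 in PBS libraries, and Neat1, whose long form has such an end too, had 4788 and 4682 in rIL17 libraries and 4873 and 5222 in PBS libraries. The other 9, small RNAs such as Rn7sk and Snord17, were at 21.1 normalized counts or less in every library. Those with the smallest limma p were Scarna6, at 1.01 and 1.00 in rIL17 libraries and 5.89 and 2.98 in PBS libraries, and Scarna9, at 1.01 and 2.01 in rIL17 libraries and 4.91 and 2.98 in PBS libraries, neither of them called. Small RNAs can also be lost in size selection, and the part of the library preparation in the low histone values was not tested.

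**Figure D1:**
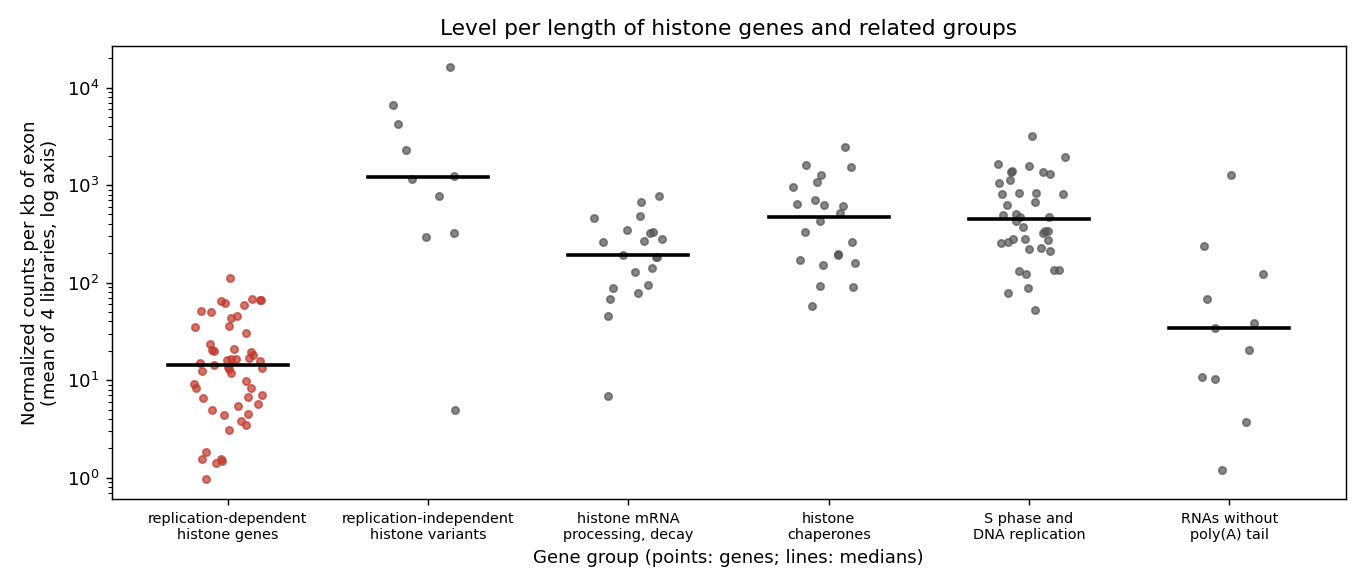
Level of each gene in normalized counts per kb of exon (mean of the 4 libraries, log axis) for the replication-dependent histone genes and 5 related groups, with a line at each group's median. The histone genes lay between 0.978 and 112 per kb with a median of 14.2, against a median of 1199 for the replication-independent variants.

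By class, the median level was 14.5 per kb for H1, 10.9 for H2A, 14.8 for H2B, 25.9 for H3 and 17.9 for H4, and within every class the members spread over at least an order of magnitude. Hist1h3h, an H3 gene at chr13:21717659-21718069 on the plus strand, had the highest level per kb, 112. Near-identical copies complicate such single-gene levels. Only 6.08% of the 50-base windows of the Hist1h3h transcripts occurred in no other annotated gene, the median over members was 50.5%, and 13 members were under 20%. For the 17 genes that were not analysed here the median was 35.2%, and 5 of them had no such window. In addition, 18 members, all 16 H2A genes among them, overlap an exon of another annotated gene, mostly a small model on the opposite strand. The strand setting of the counting is not given in the sources used here, so reads of such genes cannot be told apart from those of their partners.

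The comparison of rIL17 with PBS gave no called difference for any histone gene. Of the 53 members, 51 had a group mean of 1 normalized count or more in rIL17 or in PBS and were tested, and limma called 0 of them at an adjusted p below 0.05 over all genes tested. The same fit called 0 of 20677 genes (0%). With a stricter filter, which keeps genes with 10 or more normalized counts throughout a group, 14 members were left and 0 were called, against 101 of 12515 genes (0.807%). Before adjustment, 5 of the 51 members (9.8%) had a limma p below 0.05, against 12.8% of all genes tested. These were Hist1h2af, Hist1h2bf, Hist1h2bj and Hist1h2bn with higher values in rIL17, and Hist1h2ap with lower ones. Hist1h2bf and Hist1h2bn reached the group mean of 1 in rIL17 only, and Hist1h2ap in PBS only. They were thus tested only through the group where they were higher. Both rIL17 libraries lay above both PBS libraries in 8 members, against 25.4% of all genes, and below both in 14 members, against 20% of all genes. The first count includes Hist1h2ah, whose 4.02 and 4.01 normalized counts in rIL17 libraries and 3.92 and 3.98 in PBS libraries all correspond to 4 whole steps of the deposited scale. It also includes Hist1h2an, Hist1h2bf and Hist1h2bn, and the second count includes Hist1h2ap, which all passed the filter through 1 group only.

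The fold change was above 0 in 19 of the 51 members (37.3%), below 0 in 31 and at 0 in 1, while 52.8% of all genes tested were above 0. The median log2 fold change, rIL17 over PBS on the log2(normalized count + 1) scale, was -0.21 for the members and 0.01 for all genes tested. The median absolute log2 fold change was 0.50, with a median standard error of 0.37. Between single libraries of a group the median absolute difference was 0.43 in rIL17 and 0.43 in PBS; these are differences of single libraries, and the fold change is one of means of 2 libraries.

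**Figure D2:**
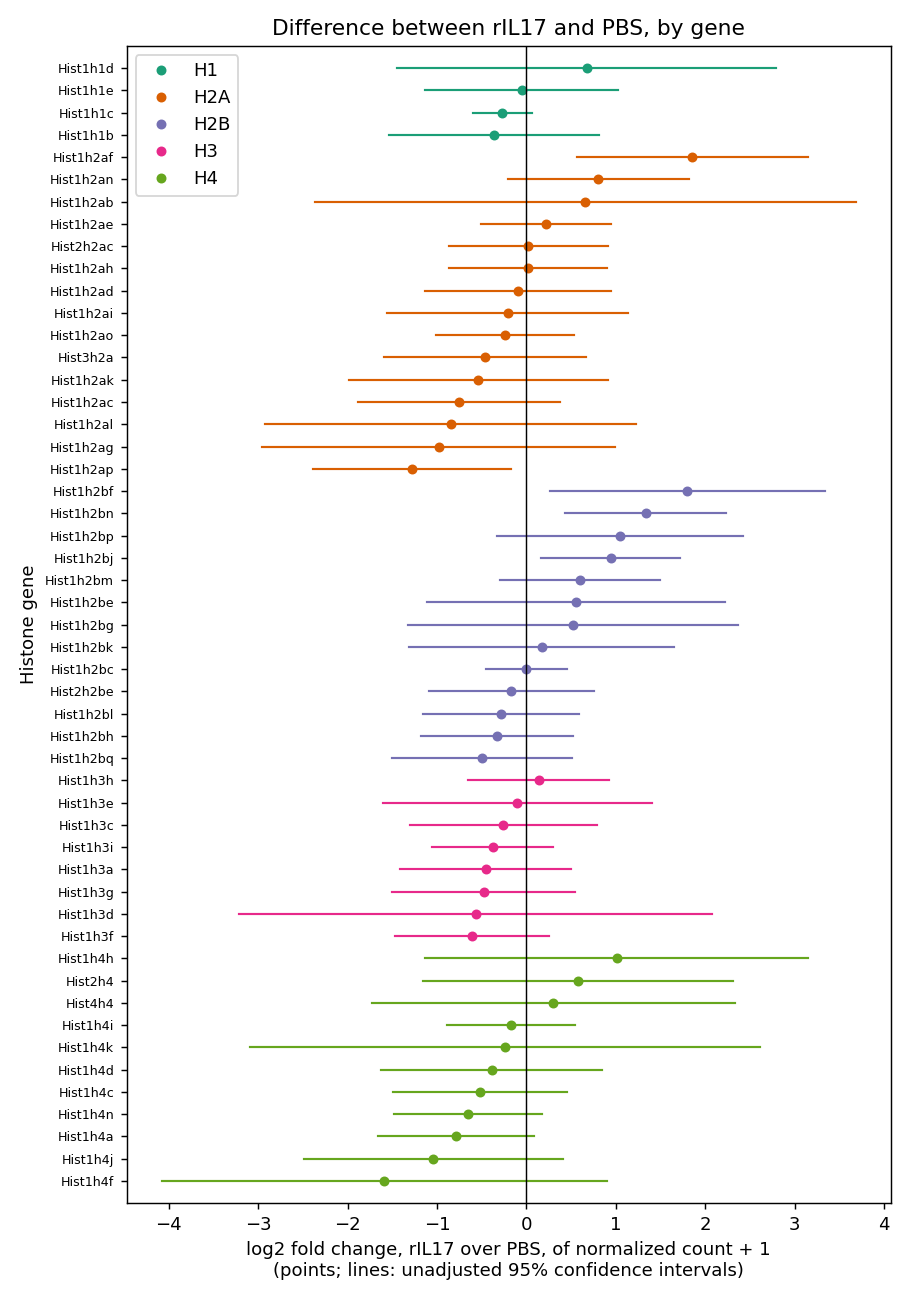
Log2 fold change of each of the 51 tested histone genes, rIL17 over PBS, on the log2(normalized count + 1) scale (points), with unadjusted 95% confidence intervals from limma (lines), coloured by class. Most intervals cover 0, H2B genes make up most of those with values above 0.5, and 7 of the 8 H3 genes lie below 0.

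Summed over 4 genes, the linker histone class H1 had 156 and 135 normalized counts in rIL17 libraries and 160 and 168 in PBS libraries, a log2 ratio of -0.17 that was not tested. The ratio was -0.28 without rIL17 replicate 1, -0.074 without rIL17 replicate 2 and -0.082 after a correction of each library for GC content. The groups did not overlap. Exact Poisson 95% intervals of single libraries cover counting error only. They ran from 114 to 182 over the rIL17 libraries and from 136 to 195 over the PBS libraries. Overlap of such single-library intervals is no test of the group difference. Hist1h1c, encoding H1.2 and located at chr13:23738808-23740367 on the plus strand, was the most abundant histone gene. It had 95.5 and 91.3 normalized counts in rIL17 libraries and 109 and 116 in PBS libraries. Both rIL17 libraries were below both PBS libraries, with a log2 fold change of -0.27 (SE 0.12, limma adjusted p = 0.443). Without Hist1h1c the H1 sum was 60.3 and 44.1 in rIL17 libraries and 51.0 and 51.7 in PBS libraries, with the groups overlapping.

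The other H1 genes overlapped between treatments. Hist1h1e, encoding H1.4, had 37.2 and 23.1 normalized counts in rIL17 libraries and 37.3 and 24.9 in PBS libraries. In both groups replicate 1 was the higher one. Hist1h1b, encoding H1.5, had 6.03 and 11.0 in rIL17 libraries and 9.81 and 11.9 in PBS libraries, and Hist1h1d, encoding H1.3, had 17.1 and 10.0 in rIL17 libraries and 3.92 and 14.9 in PBS libraries. The PBS libraries of Hist1h1d differed from each other by more than the group means did.

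H2A, the histone that pairs with H2B, showed no common direction. The sum over 16 genes was 143 and 149 normalized counts in rIL17 libraries and 167 and 151 in PBS libraries, a log2 ratio of -0.12. The ratio was -0.049 without PBS replicate 1, -0.19 without PBS replicate 2 and -0.051 after GC correction. The groups were separate only by the annotated pseudogenes Hist1h2aj and Hist1h2al: without them the sum was 138 and 146 in rIL17 libraries and 152 and 145 in PBS libraries, and the groups overlapped. Of 15 tested H2A genes, 6 had higher and 9 lower values in rIL17, with a median log2 fold change of -0.21. The pseudogene Hist1h2aj, at 0 in both rIL17 libraries and at 0 and 1.99 in PBS libraries, was not tested.

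Among the single H2A genes, Hist1h2ae was the most abundant, with 58.3 and 40.1 normalized counts in rIL17 libraries and 41.2 and 41.8 in PBS libraries. Its groups overlapped because rIL17 replicate 2 lay just under the PBS values (log2 fold change 0.22, SE 0.25, limma adjusted p = 0.717). Hist1h2ao had 19.1 and 26.1 in rIL17 libraries and 28.5 and 24.9 in PBS libraries, and Hist1h2ai had 14.1 and 16.0 in rIL17 libraries and 11.8 and 25.9 in PBS libraries. Both also overlapped.

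The H2A genes with the smallest limma p, Hist1h2af and Hist1h2ap, had few counts. Hist1h2af had 6.03 and 10.0 normalized counts in rIL17 libraries and 0.981 and 1.99 in PBS libraries. The summed ratio was 5.41 with an exact binomial 95% interval of 1.55 to 29 for counting error only (limma adjusted p = 0.373). Hist1h2af was picked by its limma p in these same libraries, so the interval is no separate support for a difference. Only 6% of the 50-base windows of this gene occur in no other gene. Hist1h2ap was listed at 0 in both rIL17 libraries and stood at 0.981 and 1.99 in PBS libraries, so both groups were at or under 3 counts and no ratio is given. Its fitted fold change, plotted with the others, depends on the pseudocount.

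H2B was the class with the higher sum in the rIL17 libraries, a difference that was not tested. The sum over 14 genes was 264 and 262 normalized counts in rIL17 libraries and 207 and 239 in PBS libraries, a log2 ratio of 0.24. The ratio was 0.14 without PBS replicate 1 and 0.35 without PBS replicate 2. Both rIL17 libraries were above both PBS libraries. The Poisson intervals of single libraries ran from 231 to 298 over the rIL17 libraries and from 180 to 271 over the PBS libraries. Their overlap is no test of the group difference. Of 13 tested genes, 8 had higher values in rIL17, 4 had lower values and 1 had a log2 fold change of 0.00. The median log2 fold change of the class was 0.52. No H2B gene passed the adjusted threshold under any fit that was run.

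Hist1h2bj accounted for a large share of the H2B difference. This gene lies at chr13:22043214-22043676 on the plus strand. It had 36.2 and 45.1 normalized counts in rIL17 libraries and 17.7 and 23.9 in PBS libraries. The lower rIL17 library lay above the higher PBS library, with a log2 fold change of 0.94 (SE 0.27, unadjusted 95% interval 0.16 to 1.72, limma adjusted p = 0.373). Under the stricter filter its limma adjusted p was 0.223. Without Hist1h2bj the H2B sum was 228 and 217 in rIL17 libraries and 189 and 215 in PBS libraries, a log2 ratio of 0.14. The rIL17 libraries were still above the PBS libraries, by less than the PBS libraries differed from each other.

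Other abundant H2B genes did not separate the treatments. Hist1h2bc, with exons over chr13:23684199-23692908, had 56.3 and 60.2 normalized counts in rIL17 libraries and 54.9 and 61.7 in PBS libraries. Its log2 fold change was 0.00, with an unadjusted 95% interval of -0.45 to 0.45. Hist1h2bk had 23.1 and 35.1 in rIL17 libraries and 16.7 and 37.8 in PBS libraries, where the replicates of each group stood further apart than the group means. Hist2h2be, the H2B gene of cluster 2, had 60.3 and 36.1 in rIL17 libraries and 56.9 and 48.7 in PBS libraries; it is named for its level, after its values were seen. These groups overlapped.

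The largest H2B fold changes came from genes with a few counts. Hist1h2bn had 4.02 and 4.01 normalized counts in rIL17 libraries and 0.981 and 0.994 in PBS libraries, a summed ratio of 4.07 with an exact binomial 95% interval of 0.811 to 39.3 for counting error only. Hist1h2bf, likewise named after its values were seen, had 5.03 and 3.01 in rIL17 libraries and 0 and 0.994 in PBS libraries. Its summed ratio was 8.08, with an interval of 1.08 to 359. Both genes passed the filter through rIL17 only and were picked by these same values. Neither interval can therefore serve as support for a difference. The limma adjusted p was 0.373 for both genes. Hist1h2bb, at 1.01 and 0 in rIL17 libraries and 0.981 and 0 in PBS libraries, was not tested.

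**Figure D3:**
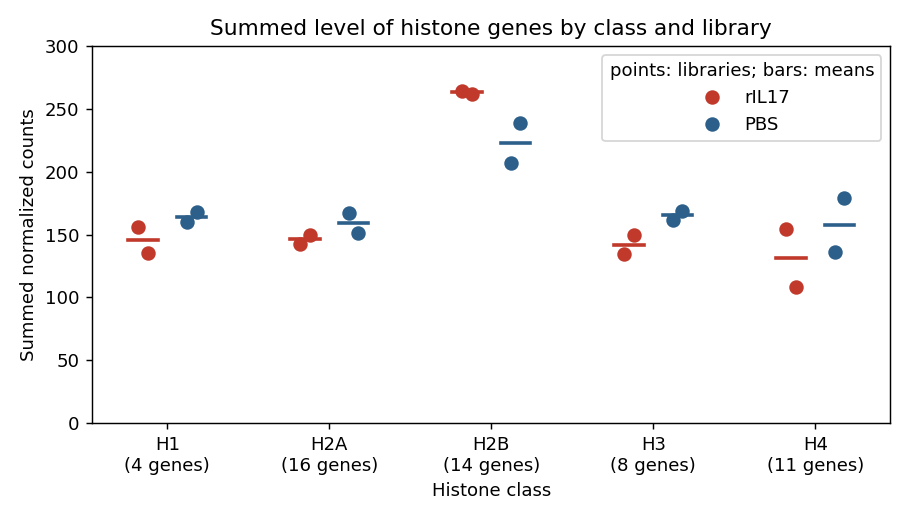
Summed normalized counts of each histone class in each library (points), with the mean of the 2 libraries of a group (bars), rIL17 left of PBS. H2B sums of 264 and 262 in rIL17 libraries lay above 207 and 239 in PBS libraries, the H1, H2A and H3 sums in rIL17 libraries lay below those in PBS libraries, and the H4 sums overlapped.

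H3, which with H4 forms the core tetramer, had lower values in rIL17 for 7 of 8 genes, none of which was called. The sum was 135 and 149 normalized counts in rIL17 libraries and 162 and 169 in PBS libraries, a log2 ratio of -0.22. Both rIL17 libraries were below both PBS libraries. The Poisson intervals of single libraries ran from 113 to 175 in rIL17 libraries and from 138 to 196 in PBS libraries. Their overlap is no test of the group difference. The GC correction moved this ratio to -0.049. The histone transcripts are GC-rich, with a median of 57.8% against 49.2% for all genes tested.

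Hist1h3h, the exception in direction, had 58.3 and 39.1 normalized counts in rIL17 libraries and 40.2 and 46.7 in PBS libraries, with overlapping groups. Hist1h3i had 21.1 and 23.1 in rIL17 libraries and 32.4 and 25.9 in PBS libraries, both rIL17 values being lower (log2 fold change -0.38, SE 0.24, limma adjusted p = 0.556). Hist1h3f had 6.03 and 5.01 in rIL17 libraries and 8.83 and 8.95 in PBS libraries, again without overlap (log2 fold change -0.61, SE 0.30, limma adjusted p = 0.483). Hist1h3c had 20.1 and 32.1 in rIL17 libraries and 25.5 and 36.8 in PBS libraries and overlapped, since replicate 2 was the higher one in both groups.

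H4 had the widest spread between replicates. Its sum over 11 genes was 155 and 108 normalized counts in rIL17 libraries and 136 and 179 in PBS libraries, a log2 ratio of -0.26 with overlapping groups. The ratio was -0.54 without rIL17 replicate 1 and -0.027 without rIL17 replicate 2, -0.44 without PBS replicate 1 and -0.052 without PBS replicate 2, and -0.14 after GC correction. Of the 11 genes, 8 had lower and 3 higher values in rIL17, and the median log2 fold change was -0.39. In 5 of the 11 genes both rIL17 libraries were below both PBS libraries, against 20% of all genes tested. Hist1h4i, the most abundant H4 gene, at chr13:22040636-22041362 on the minus strand, had 47.2 and 45.1 in rIL17 libraries and 43.2 and 62.6 in PBS libraries, with overlap. Hist1h4k had 21.1 and 3.01 in rIL17 libraries and 7.85 and 12.9 in PBS libraries, so its rIL17 replicates alone spanned the whole range.

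Hist1h4n and Hist1h4a were the H4 genes with the smallest limma p. Hist1h4n had 11.1 and 9.03 normalized counts in rIL17 libraries and 14.7 and 17.9 in PBS libraries, a log2 fold change of -0.65 (SE 0.29, limma adjusted p = 0.450). Hist1h4a had 3.02 and 3.01 in rIL17 libraries and 5.89 and 5.97 in PBS libraries, a log2 fold change of -0.79 (SE 0.30, limma adjusted p = 0.415). In neither did the groups overlap, and neither was called. The H4 genes with the lowest and the highest log2 fold change, -1.59 and 1.01, were named after their values were seen. Hist1h4f had 8.04 and 1.00 in rIL17 libraries and 12.8 and 10.9 in PBS libraries, and Hist1h4h had 16.1 and 12.0 in rIL17 libraries and 2.94 and 12.9 in PBS libraries.

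Cluster sums gave no further separation. Cluster 1 summed to 757 and 739 normalized counts in rIL17 libraries and 738 and 829 in PBS libraries. Cluster 2 summed to 79.4 and 46.1 in rIL17 libraries and 66.7 and 60.7 in PBS libraries. Hist3h2a, the member of cluster 3, had 9.05 and 15.0 in rIL17 libraries and 19.6 and 13.9 in PBS libraries, and Hist4h4, the member of cluster 4, had 7.04 and 4.01 in rIL17 libraries and 7.85 and 1.99 in PBS libraries. In each cluster the groups overlapped. Grouped by the annotated 3' end, members whose transcript ends within 50 bases of the stem-loop summed to 150 and 169 in rIL17 libraries and 135 and 161 in PBS libraries, with overlap. Those that run on further summed to 396 and 376 in rIL17 libraries and 402 and 444 in PBS libraries, both rIL17 values being lower (log2 ratio -0.13). Those without a match summed to 307 and 259 in rIL17 libraries and 294 and 301 in PBS libraries, with overlap. The differences between these sets were not tested.

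Many histone genes stand head to head, so that an H2A gene and an H2B gene are transcribed away from each other from a short shared stretch. Among the annotated histone genes of any class, 15 head-to-head pairs had starts within 1000 bases of each other. In 11 H2A and H2B pairs both genes were members, with 176 to 302 bases between the starts. These stretches are shown because the H2A and H2B genes of a pair share them. The H2B sums in rIL17 libraries lay above the PBS values. The H2A sums lay below them only with the pseudogenes Hist1h2aj and Hist1h2al, and Hist1h2al is in none of the pairs. The window of RefSeq (GRCm38.p6) from 250 bases before the start of Hist1h2bj to 50 after it, chr13:22042948-22043247 on the plus strand, reaches back to the start of Hist1h2ag on the other strand. The window of Hist1h2ae, chr13:23571171-23571470 on the minus strand, covers the start of Hist1h2bg. Capitals mark TATAAA, the octamer ATTTGCAT and the short motif CCAAT, each on either strand:
Hist1h2bj: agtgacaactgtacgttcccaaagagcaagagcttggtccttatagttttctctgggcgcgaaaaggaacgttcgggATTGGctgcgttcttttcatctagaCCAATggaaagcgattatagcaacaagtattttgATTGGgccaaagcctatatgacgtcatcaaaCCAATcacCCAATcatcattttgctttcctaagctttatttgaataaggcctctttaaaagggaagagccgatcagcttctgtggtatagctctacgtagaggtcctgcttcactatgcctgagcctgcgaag
Hist1h2ae: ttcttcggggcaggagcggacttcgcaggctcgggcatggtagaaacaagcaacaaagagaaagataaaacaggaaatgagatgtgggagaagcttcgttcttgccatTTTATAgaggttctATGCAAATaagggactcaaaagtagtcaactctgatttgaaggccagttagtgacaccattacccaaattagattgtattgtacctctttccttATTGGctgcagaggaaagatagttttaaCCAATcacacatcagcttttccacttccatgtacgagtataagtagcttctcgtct
The Hist1h2bj window holds 5 CCAAT matches, and neither TATAAA nor the octamer. The Hist1h2ae window holds all of these motifs.

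CCAAT, the letters bound by NF-Y, occurred in 38 of the 45 members with a RefSeq window, against 37.4% of 32851 windows of all genes. It was in all 4 H1, 13 H2A, 12 H2B and 6 H3 windows and in 3 of 10 H4 windows. The octamer, the letters bound by the POU factor Oct-1, occurred in 6 of 13 H2A and 4 of 12 H2B windows, in none of the H1, H3 and H4 windows, and in 1.74% of all windows. TATAAA occurred in 27 members (60%), against 13.6% of all windows. Windows of head-to-head partners can overlap, as those of Hist1h2ae and Hist1h2bg do. The same match is then counted in both windows, so the windows of the members are not independent. These counts describe letters in a window and were not tested against the treatment.

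Of the 11 H2A and H2B pairs, 10 had both genes tested. In 5 pairs the partners had the same sign. In 3 pairs the H2B gene was higher and the H2A gene lower in rIL17, in 1 it was the reverse, and in 1 the H2B gene was at 0.00. The H2B value lay above the H2A value in 7 of 10 pairs, with a median log2 fold change of 0.35 for the H2B genes and -0.15 for the H2A genes. The partners of the Hist1h2bj stretch differed most in log2 fold change: beside 0.94 for Hist1h2bj, Hist1h2ag had 1.01 and 5.01 normalized counts in rIL17 libraries and 4.91 and 6.96 in PBS libraries, with overlapping groups and a log2 fold change of -0.98. All H2A members overlap another annotated gene model, as given above, and the part of that overlap in the difference was not tested.

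**Figure D4:**
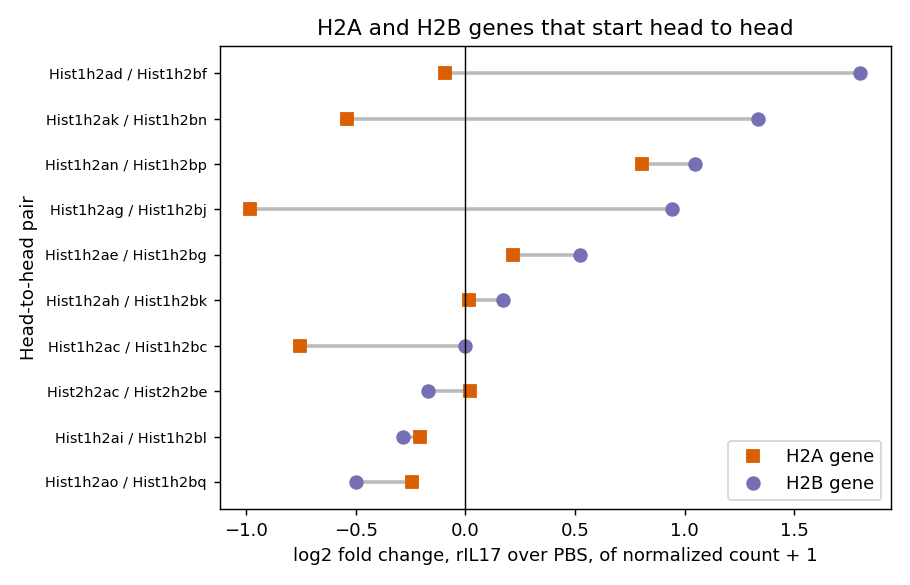
Log2 fold change, rIL17 over PBS, on the log2(normalized count + 1) scale for the H2A gene (squares) and the H2B gene (circles) of 10 head-to-head pairs, ordered by the H2B value. The H2B value lies above the H2A value in 7 pairs, and the partners of Hist1h2ag and Hist1h2bj lie at -0.98 and 0.94.

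The genes that act on histone supply were well measured, and none of them was called. Of 21 genes of histone mRNA processing and decay, 9 had higher and 12 lower values in rIL17, with a median log2 fold change of -0.04. Slbp, which encodes the stem-loop binding protein, had 1769 and 1608 normalized counts in rIL17 libraries and 1704 and 1368 in PBS libraries, and the groups overlapped. Casp8ap2, encoding FLASH, a factor of histone 3' end processing, had 641 and 536 in rIL17 libraries and 603 and 361 in PBS libraries, also with overlap. Lsm1, a subunit of the ring that binds oligouridylated histone mRNA during decay, had 507 and 537 in rIL17 libraries and 580 and 637 in PBS libraries, without overlap (log2 fold change -0.22, SE 0.08, limma adjusted p = 0.397).

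Zcchc11, encoding the terminal uridylyltransferase TUT4, had 966 and 951 normalized counts in rIL17 libraries and 811 and 568 in PBS libraries. The rIL17 libraries lay above both PBS libraries, which were themselves far apart (log2 fold change 0.50, SE 0.20, limma adjusted p = 0.418). Mblac1, encoding a nuclease reported to cut histone pre-mRNA in human cells, had 53.3 and 51.1 in rIL17 libraries and 62.8 and 72.6 in PBS libraries, without overlap (log2 fold change -0.37, SE 0.16, limma adjusted p = 0.446).

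Of 17 genes of histone gene transcription, 10 had higher and 7 lower values, with a median log2 fold change of 0.04. Npat, encoding the cyclin E and CDK2 substrate that activates histone genes at the G1/S border, had 665 and 633 normalized counts in rIL17 libraries and 598 and 525 in PBS libraries. The groups did not overlap, and the log2 fold change was 0.21 (SE 0.09, limma adjusted p = 0.439). Hinfp, encoding the factor that binds H4 promoters, had 457 and 420 in rIL17 libraries and 469 and 461 in PBS libraries, both rIL17 values being lower (log2 fold change -0.09, SE 0.07, limma adjusted p = 0.617).

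The NF-Y subunits differed in direction. Nfyb had 745 and 680 normalized counts in rIL17 libraries and 638 and 573 in PBS libraries, and Nfyc had 932 and 901 in rIL17 libraries and 1022 and 1079 in PBS libraries. Neither gene's groups overlapped, and neither was called (limma adjusted p = 0.415 and 0.373). Tbpl1, encoding the TBP-related factor that acts at the H1 promoter, had 613 and 687 in rIL17 libraries and 559 and 530 in PBS libraries, also without overlap (limma adjusted p = 0.378).

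Histone chaperones and assembly factors had lower values in rIL17 for 15 of 22 genes, with a median log2 fold change of -0.04. Asf1b, a chaperone that hands newly made H3 and H4 to the assembly factors, had 1424 and 1448 normalized counts in rIL17 libraries and 1531 and 1612 in PBS libraries. The groups did not overlap, with a log2 fold change of -0.13 (SE 0.05, limma adjusted p = 0.416). Nap1l4, an H2A and H2B chaperone, had 2890 and 2772 in rIL17 libraries and 2988 and 3120 in PBS libraries, and Ipo4, which imports H3 and H4, had 784 and 894 in rIL17 libraries and 929 and 979 in PBS libraries. Both were lower in rIL17 without overlap, at log2 fold changes of -0.11 and -0.19 (limma adjusted p = 0.453 and 0.464).

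The replication-independent variants had lower values in rIL17 for 8 of 10 genes, with a median log2 fold change of -0.07. All but H2afy2 were at 506 normalized counts or more in every library. H2afy2, chosen for mention after its values were seen, had 3.02 and 11.0 in rIL17 libraries and 21.6 and 7.96 in PBS libraries. H3f3b was an exception, with 22493 and 21592 normalized counts in rIL17 libraries and 19505 and 15805 in PBS libraries. Both rIL17 values were higher, and the log2 fold change was 0.33 (SE 0.12, limma adjusted p = 0.408). Cenpa, encoding the H3 variant of centromeres, had 4304 and 4425 in rIL17 libraries and 4852 and 4676 in PBS libraries, without overlap (log2 fold change -0.13, SE 0.04, limma adjusted p = 0.392).

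Among these variants H2afx, encoding H2A.X, had 3090 and 3111 normalized counts in rIL17 libraries and 3164 and 3283 in PBS libraries, without overlap (log2 fold change -0.06, limma adjusted p = 0.611). H1fx, also on the list, was not analysed here.

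Of 40 genes of S phase and DNA replication, 22 had higher and 18 lower values, with a median log2 fold change of 0.01. In 14 of them both rIL17 libraries were above both PBS libraries, against 25.4% of all genes tested, and in 7 below both, against 20%. Ccne2, encoding cyclin E2 and named after its values were seen, had the highest fold change of the list, with 400.1 and 330.0 normalized counts in rIL17 libraries and 255 and 98.4 in PBS libraries. The groups did not overlap, and the PBS libraries were far apart (log2 fold change 1.19, SE 0.52, limma adjusted p = 0.448). Pcna, the sliding clamp of DNA replication, had 8002 and 7772 normalized counts in rIL17 libraries and 7334 and 7673 in PBS libraries, a log2 fold change of 0.07 (SE 0.05, limma adjusted p = 0.563) without overlap. Fen1, the flap endonuclease, had 112 and 115 in rIL17 libraries and 144 and 140 in PBS libraries, while Pola1, the catalytic subunit of DNA polymerase alpha, had 1344 and 1356 in rIL17 libraries and 1125 and 840 in PBS libraries. Their log2 fold changes were -0.32 and 0.47, in opposite directions and each without overlap (limma adjusted p = 0.373 and 0.388). Cdc7, a kinase that fires replication origins, had 1000.2 and 1024 in rIL17 libraries and 915 and 776 in PBS libraries (limma adjusted p = 0.414).

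Of 20 genes of mitosis and proliferation, 8 had higher and 12 lower values, with a median log2 fold change of -0.04. Mki67, encoding the proliferation antigen Ki-67, had 10111 and 10285 normalized counts in rIL17 libraries and 11639 and 10760 in PBS libraries. Both rIL17 values were lower, with a log2 fold change of -0.13 (SE 0.06, limma adjusted p = 0.434). The transcription factor genes Foxm1 and Mybl2 also lay lower without overlap, at log2 fold changes of -0.12 and -0.13 (limma adjusted p = 0.373 and 0.414). The shares of cells in S phase and the amount of histone mRNA per cell cannot be told apart in such bulk libraries.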

How the data were processed

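RNA from 4T1 cells treated with rIL17 or PBS, 2 libraries each, was sequenced. Reads were aligned and counted by the authors with HISAT2 2.0.5 and featureCounts 1.5.0-p3 on mm10, per the submitters' processing notes; the annotation release and the scaling tool are not given there. The deposited values are a normalized count signal: in each library 100.0% of them are whole multiples, within 0.001, of 1 step (1.0053 and 1.0029 in rIL17, 0.9811 and 0.9944 in PBS). Tests for raw counts were not used, because the values are described as normalized and not as raw counts. Dividing by the step gave the whole numbers behind the counting intervals.

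Gene symbols, exon lengths and coordinates came from GENCODE M21 (symbols for 21819 of 21840 rows), and promoter windows from RefSeq. The test was limma 3.58.1 in R 4.3.3, with a mean-variance trend and no covariate, on log2(normalized count + 1) of genes whose mean reached 1 in rIL17 or PBS; p-values were adjusted by Benjamini and Hochberg's method over all genes, with 0.05 as the threshold; the log2(value + 1) scale understates the change of low genes. Class values are sums over members, with no test. The stricter filter kept genes with 10 or more normalized counts throughout a group and a mean CPM of 1 or more. PCR duplicates are not independent molecules, so intervals cover counting error only. The p-values measure no more than the spread of these libraries, and that spread may be technical.

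The members, lists and tests were chosen with earlier results of these data known. Named genes were the 3 members per class with the highest level per kb and the 2 with the smallest limma p, the 3 genes with the smallest limma p in each other list, and Slbp, Npat, Hinfp, Casp8ap2, Mki67 and Pcna. For the cell marker lists, not all of these 3 were named. Some other genes are marked in the text, and some, such as H1f0, H2afz, Malat1, Hist1h2ah and Hist1h2ag, are named without a mark. The alternatives tried were other scalings, filters, a pseudocount of 0.1, limma-voom, a GC correction (loess, span 0.3), the replicate number as a block and each library left out; a group mean of at least 2 was added after seeing the data.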

Additional observations from a re-analysis of the deposited data

How the results depend on the processing

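In all 14 alternatives 0 histone genes were called, and the smallest limma adjusted p of any member in any fit was 0.125. Genes called over the whole table numbered 59 with upper-quartile scaling, 24 with total-count scaling, 78 with the GC correction, 101 with the stricter filter, 1 with limma-voom and 1 with a group mean of at least 2, against 0. The replicate numbers were not shown to pair the libraries: the replicate differences of the groups correlated at 0.157 over 12515 genes, with only 2 pairs. With the replicate block 0 genes were called, and with the block and the GC correction 477 were; the cause was not tested. The median log2 fold change of the members was -0.25 with either scaling, -0.11 with the GC correction, with or without the block, -0.17 with the stricter filter and -0.24 with limma-voom, and -0.23 to -0.13 with 1 library left out. With 1 library left out, the class ratios ranged from -0.28 to -0.074 for H1, -0.19 to -0.049 for H2A, 0.14 to 0.35 for H2B, -0.30 to -0.15 for H3 and -0.54 to -0.027 for H4. After GC correction they were -0.082 for H1, -0.051 for H2A, 0.23 for H2B, -0.049 for H3 and -0.14 for H4. Hist1h1e turned to 0.059 with the GC correction, with or without the block. With 1 library left out, the sign was not stable for Hist1h1e (-0.39 to 0.28), Hist1h1b (-0.75 to 0.025), Hist1h1d (-0.17 to 1.52), Hist1h2ae (-0.047 to 0.48), Hist1h2ai (-0.74 to 0.33), Hist1h2bk (-0.39 to 0.74), Hist1h3h (-0.15 to 0.42), Hist1h3c (-0.58 to 0.064), Hist1h4i (-0.43 to 0.095) and Hist1h4k (-1.47 to 0.99). Hist1h2bc took both signs in these fits too, from -0.082 to 0.082. The planned tests on recovered reads were not run. The filter at a mean of 1 sits at 1 step, so a gene with 1 count in both rIL17 libraries passed and one with 1 in both PBS libraries did not.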
